A study of Mus musculus with 14 samples.

Results

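The let-7 family of miRNAs was described across 14 mouse tissues from the 9 names mmu-let-7a, mmu-let-7b, mmu-let-7c, mmu-let-7d, mmu-let-7e, mmu-let-7f, mmu-let-7g, mmu-let-7i and mmu-miR-98 (written below without the species prefix), which are 9 of the 1046 mature miRNA names in the deposited count table. The members were taken by name alone, with the star names (the opposite arm of each hairpin) kept apart and described separately. Each tissue was represented by 1 library of pooled RNA from C57BL/6J mice, a common inbred strain, and the labels name no treatment or engineered allele. The tissues were brain and cerebellum, the thoracic organs heart and lung, the digestive organs liver, pancreas, oesophagus, stomach, small intestine and colon, and kidney, spleen, uterus and ovary. The labels give neither age nor sex, and they name 5 mice for the harvest but 10 for the pool, which was not settled here. With no replicates, no test between tissues was possible, intervals (95%) cover counting error only, and every difference is between these libraries. In whole tissue, fewer cells of a type and less RNA per cell cannot be told apart.

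let-7 was first described in Caenorhabditis elegans as a regulator of developmental timing, and in mammals the family accumulates as cells differentiate. Its members repress mRNAs through a shared seed, the stretch near the 5′ end that pairs with the target, and Hmga2, Ras genes and Lin28 are well-known targets. LIN28 proteins in turn bind let-7 precursors and block their processing, and the mature family is abundant in most adult organs and scarce in early embryonic cells.

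The mature sequences are shown because the members differ by so few bases that counting could mix them. All 9 members matched an entry of the RefSeq miRNA table (GRCm38.p6), and the capitals mark the seed, bases 2 to 8, which was GAGGUAG in all 9.
let-7a: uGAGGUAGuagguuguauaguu
let-7b: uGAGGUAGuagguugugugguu
let-7c: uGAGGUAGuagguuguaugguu
let-7d: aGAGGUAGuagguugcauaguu
let-7e: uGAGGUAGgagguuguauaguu
let-7f: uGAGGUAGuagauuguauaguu
let-7g: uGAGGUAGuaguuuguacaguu
let-7i: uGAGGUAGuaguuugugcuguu
miR-98: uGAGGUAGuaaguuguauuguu
Outside the seed, 4 of the 36 pairs differed by 1 base, counted from 1 at the 5′ end. Relative to let-7a these were A19G in let-7c, U9G in let-7e and G12A in let-7f, and relative to let-7b it was G17A in let-7c. let-7d and let-7i were the farthest apart, with 6 differences, and let-7d was the only member that starts with a (U1A relative to let-7a). A read with 1 error can therefore move between let-7a, let-7b, let-7c, let-7e and let-7f, and how the authors assigned such reads is not given in the sources used here.

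The 9 mature names come from 12 hairpin genes on 7 chromosomes, placed here by name in the RefSeq table (GRCm38.p6), since the count table holds no coordinates. On the minus strand of chromosome 13, let-7a-1 (chr13:48538179-48538272), let-7f-1 (chr13:48537829-48537917) and let-7d (chr13:48536012-48536114) overlap exons of the lincRNA 6720427I07Rik, with 261 bases between the hairpins of let-7a-1 and let-7f-1 and 1714 bases between those of let-7f-1 and let-7d. On the plus strand of chromosome 15, let-7c-2 (chr15:85706603-85706697) and let-7b (chr15:85707319-85707403) lie 621 bases apart in exons of Lncppara. let-7c-1 (chr16:77599657-77599750, plus strand) lies 656 bases from miR-99a in an intron of Mir99ahg. let-7e (chr17:17830352-17830444, plus strand) lies in an intron of Spaca6, 367 bases from miR-125a. let-7a-2 (chr9:41536716-41536811, plus strand) lies in an intron of 3110039I08Rik, between miR-100 and miR-125b-1. let-7f-2 (chrX:151912346-151912428) and miR-98 (chrX:151913214-151913321) lie 785 bases apart on the plus strand in introns of Huwe1, a ubiquitin ligase gene. let-7g (chr9:106178840-106178927, plus strand) lies in an intron of Wdr82, and let-7i (chr10:122985640-122985724, minus strand) overlaps an exon of D630033A02Rik. let-7a, let-7c and let-7f each have more than 1 hairpin, so their mature counts cannot be divided among loci.

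Totals ran from 622132 miRNA reads in pancreas to 9341000 in small intestine. miR-143, a smooth muscle miRNA, held 98.7% of reads in the library labelled colon and 87.1% in ovary, leaving 86545 and 292350 other reads, so levels in reads per 1000000 miRNA reads (RPM) in these libraries depend on whether miR-143 is in the total. Both scales are given below where they differ, and shares within the family do not depend on the scale. Marker miRNAs led in their own tissue for liver (miR-122, 437407 RPM), pancreas, spleen, lung, kidney and small intestine, and heart was next to oesophagus in the striated muscle list (319961 RPM and 322338 RPM), while the neural pair miR-9 and miR-124 summed to 67788 RPM in brain and 35465 RPM in cerebellum. The intestinal list (miR-192, miR-194, miR-215) was second highest of the 14 in the library labelled uterus, at 78772 RPM of all reads and 182504 RPM of reads other than miR-143. In the library labelled colon it was lowest on all reads (25.2 RPM) and 9 of 14 in rank order on reads other than miR-143 (1941 RPM). These libraries are therefore called by their labels. In ovary the gonad list (miR-202-3p and miR-202-5p) summed to 8.82 RPM, the highest of the 14. Cerebellum held 9216 RPM of the striated muscle list (3 of 14 in rank order) and 137 RPM of the acinar list (2 of 14), and their part in the results below was not tested.

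Summed over its 9 members, the family made up most of the brain library and a small part of the heart library. It held 64.5% of all miRNA reads and 68.9% of reads other than miR-143 in brain. Spleen held 32.5% of all miRNA reads and 67.5% of reads other than miR-143. In cerebellum the family made up 33.5% of all miRNA reads and 35.0% of reads other than miR-143. The lowest share of reads other than miR-143 was in heart, at 6.75%, next to 5.30% of all reads there. Brain and spleen therefore stood high on both scales, and heart and the library labelled uterus (4.64% and 10.7%) stood low on both.

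Among the other tissues, the place of the family changed most with miR-143 in ovary and the library labelled colon. It changed little in stomach (11 and 10 of 14 in rank order) and small intestine (10 and 11). The library labelled colon had 0.661% of all reads in the family, the lowest of 14, but 51.0% (50.6 to 51.3%) of reads other than miR-143. Ovary had 11.3% and 87.3% (87.2 to 87.4%), which was the highest share on the second scale. Lung had 17.1% and 44.0%, pancreas 24.2% and 25.2%, and liver 18.9% and 20.1%. Kidney had 14.1% and 20.1%, stomach 5.50% and 18.5%, oesophagus 10.5% and 13.6%, and small intestine 6.44% and 13.9%. Liver and kidney lay close together on the second scale, and lung, which was under liver and pancreas on all reads, was above liver, kidney and pancreas on it.

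**Figure D1:**
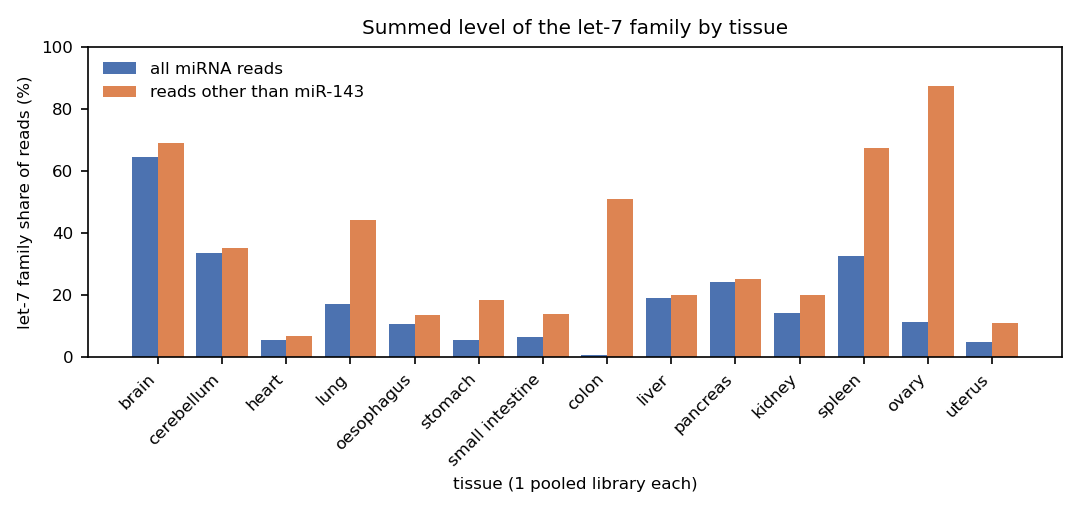
Bars give the summed let-7 family as a percentage of all miRNA reads (blue) and of reads other than miR-143 (orange) in each tissue, 1 pooled library each. Brain is high on both scales (64.5% and 68.9%), whereas ovary (11.3% and 87.3%) and the library labelled colon (0.661% and 51.0%) change place with the scale.

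let-7f, let-7c and let-7a carried most of the family everywhere, with 70.3 to 86.6% of its reads together. let-7f led in 9 libraries and let-7c in 5, and miR-98 was last in all 14. On the scale of all reads, let-7f, which has a locus in each of the chromosome 13 and X clusters, had 267439 in brain, 172908 in spleen, 94818 in pancreas, 67081 in liver and 53798 in lung (RPM). It then had 42354 in oesophagus, 41814 in kidney, 31622 in small intestine, 30643 in ovary and 22191 in stomach, and last 16132 in cerebellum, 13393 in the uterus-labelled library, 11394 in heart and 2274 in the colon-labelled library. Brain and spleen were far above the rest, and cerebellum stood in the lower part of the order.

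let-7c, transcribed from chromosomes 15 and 16, had 192279 in cerebellum, 166711 in brain, 58714 in pancreas, 52061 in spleen and 50714 in lung (RPM), then 45874 in liver, 44601 in kidney, 41056 in ovary, 27568 in oesophagus and 20681 in heart, and 16336 in the uterus-labelled library, 14975 in stomach, 12602 in small intestine and 2084 in the colon-labelled library. Here cerebellum came first and brain next to it. let-7b, the chromosome 15 neighbour of let-7c, ran in nearly the same way: it had 85734 in cerebellum, 47971 in brain, 19214 in lung, 18926 in kidney and 18149 in pancreas, then 17242 in liver, 15204 in spleen, 10971 in ovary, 6191 in heart and 5143 in oesophagus, and 4388 in the uterus-labelled library, 3165 in small intestine, 2756 in stomach and 606 in the colon-labelled library. On this scale both members were highest in the neural tissues, whereas on reads other than miR-143 ovary was first for let-7c. For let-7b on reads other than miR-143, cerebellum (89806 RPM) was first and ovary (85080 RPM) came before brain (51207 RPM). let-7a, which shares a cluster with let-7f and let-7d, had 95306 in brain, 56824 in spleen, 51664 in pancreas, 40659.7 in liver and 33954 in lung, then 26968 in cerebellum, 22593 in ovary, 18247 in kidney, 16246 in oesophagus and 10379.6 in heart, and 9011 in small intestine, 8691 in stomach, 8249 in the uterus-labelled library and 928 in the colon-labelled library. Brain and spleen came first for let-7a, as they did for let-7f.

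The 5 less abundant members were all highest in brain on all reads and differed in the tissues that followed. let-7g, from the intron of Wdr82, had (in RPM) 36395 in brain, 16092 in spleen, 14051 in liver, 13213 in pancreas and 11380.2 in kidney, then 6198 in lung, 5729 in cerebellum, 5138 in small intestine, 4390.0 in ovary and 3462 in stomach, and 3272 in oesophagus, 2291 in the uterus-labelled library, 2160.5 in heart and 444 in the colon-labelled library. let-7d, at the end of the chromosome 13 cluster, had 10274 in brain, 8309.5 in oesophagus, 6052 in spleen, 2801 in kidney and 2762 in lung, then 2155 in liver, 1793 in stomach, 1595 in pancreas, 1531 in small intestine and 1176 in cerebellum, and 929 in ovary, 834 in the uterus-labelled library, 768 in heart and 59.8 in the colon-labelled library. For let-7d oesophagus came directly after brain, and cerebellum was among the lowest 5 libraries.

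let-7i, the member with a locus of its own on chromosome 10, had (in RPM) 8863 in brain, 4430.1 in spleen, 3899.8 in cerebellum, 3146 in lung and 2028 in kidney, then 1961 in pancreas, 1108 in heart, 918 in oesophagus, 885 in liver and 785 in small intestine, and 779 in ovary, 739 in stomach, 515 in the uterus-labelled library and 168 in the colon-labelled library. Its upper part held both neural tissues, spleen and lung. let-7e, clustered with miR-99b and miR-125a, had 10635 in brain, 1514 in cerebellum, 1294 in kidney, 1141 in pancreas and 1089.6 in spleen, then 1053 in lung, 899 in ovary, 679 in oesophagus, 431 in liver and 387 in small intestine, and 266 in the uterus-labelled library, 262 in stomach, 241 in heart and 35.8 in the colon-labelled library. On all reads brain exceeded the next tissue, cerebellum, 7.02-fold (counting interval 6.69 to 7.37), the widest such step of the 9 members. On reads other than miR-143, brain (11352 RPM) was followed by ovary (6975 RPM), with cerebellum lower at 1586 RPM. miR-98, from the Huwe1 intron, had 1519 in brain, 1158 in cerebellum, 553 in spleen, 419.5 in pancreas and 335 in lung, then 282 in ovary, 232 in kidney, 203 in liver, 142 in oesophagus and 127 in small intestine, and 104 in heart, 98.4 in stomach, 92.7 in the uterus-labelled library and 10.3 in the colon-labelled library. It was the least abundant member, and again the neural tissues came first.

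Within these orders, 13 of the 117 pairs of neighbouring tissues had overlapping counting intervals and are not separated. They were 4 pairs each for let-7e (pancreas and spleen, spleen and lung, the library labelled uterus and stomach, stomach and heart) and let-7i (kidney and pancreas, oesophagus and liver, small intestine and ovary, ovary and stomach). miR-98 had 3 (oesophagus and small intestine, heart and stomach, stomach and the library labelled uterus), and let-7d had 2 (kidney and lung, pancreas and small intestine). On reads other than miR-143 the first place was held by ovary for let-7a (175211 RPM), let-7c (318396 RPM) and miR-98 (2189 RPM). Spleen was first for let-7d (12554 RPM) and let-7f (358669 RPM), brain for let-7e (11352 RPM) and let-7g (38851 RPM), cerebellum for let-7b (89806 RPM), and the library labelled colon for let-7i (12918 RPM). Heart was lowest for 7 members on that scale, the exceptions being let-7b (oesophagus, 6669.9 RPM) and let-7i (liver, 943 RPM).

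**Figure D2:**
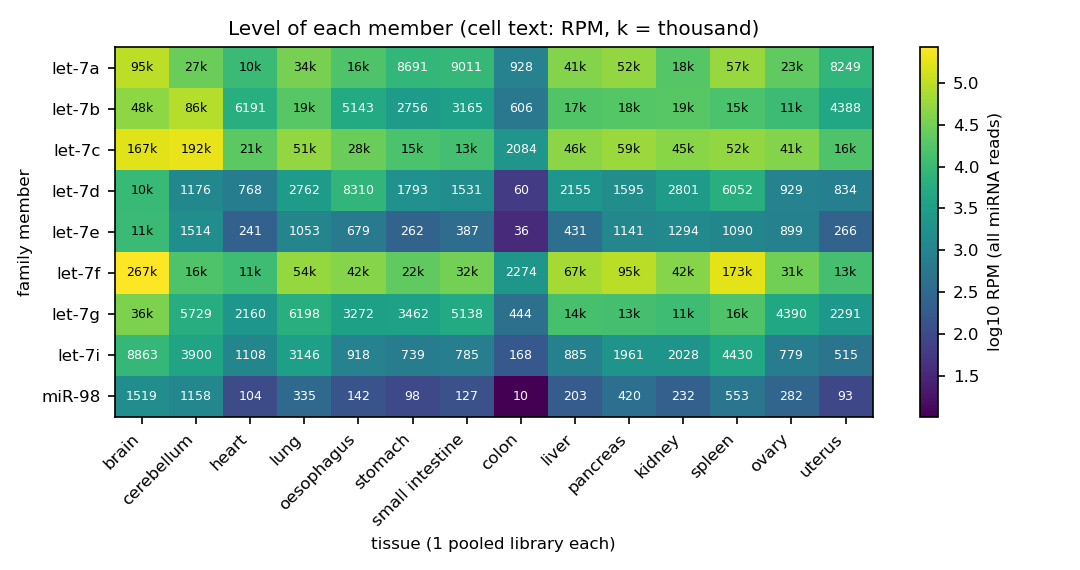
Each cell gives the level of a member (row) in a tissue (column) in RPM of all miRNA reads, with color on a log10 scale. let-7f, let-7c and let-7a form the bright rows. Within its row, brain is the brightest cell for every member but let-7b and let-7c, where cerebellum is. The cell labelled colon is the darkest of every row, from 10.3 RPM of miR-98 to 2274 RPM of let-7f.

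A member was counted as above or below in a tissue where log2(RPM + 1) differed by at least 1, a 2-fold difference, from the median of the other 13 libraries, and the same rule was run over the 418 names that reached 10 RPM in some library. On all reads, brain had 9 of 9 members above, where 66% of all names were above. The members' median was 2.82 and that of all names 2.28, so the names as a whole were higher in brain too. Spleen had 6 of 9 above (background 29.4%), with medians of 1.64 for the members and 0.09 for all names. Pancreas had 5 of 9 above (background 8.85%), with medians of 1.05 and −1.05. In spleen and pancreas the members' medians were above that of all names by more than 1 on the log2 scale. The same held in ovary, with medians of −0.38 for the members and −1.64 for all names.

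Cerebellum was split, with 5 members above (background 60.5%) and let-7f below (background 15.1%), and members ranged from −1.37 (let-7f) to 2.97 (let-7b). Liver had 3 above (background 8.37%) and let-7e below (background 26.3%). Kidney had 2 above (background 46.9%), lung 1 above, let-7i (background 40.2%), and oesophagus 1 above, let-7d (background 51%), with let-7b below (background 5.02%). In ovary no member passed in either direction (background 2.15% above and 62.7% below).

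In heart, stomach, small intestine and the libraries labelled uterus and colon, every member past the rule was below. Heart had 8 of 9 below (background 24.2%), with a median of −1.22 over members and −0.28 over all names. Stomach had 5 below (background 6.22%) and small intestine 4 (background 10.3%). The library labelled uterus had 9 of 9 below (background 12.4%), with medians of −1.45 and 0.01, and that labelled colon had 9 of 9 below (background 68.2%), with medians of −4.42 and −2.05. None of the 9 was above in heart (background 9.57%), stomach (background 27%), small intestine (background 19.9%) or the libraries labelled uterus (background 18.2%) and colon (background 0.478%). None was below in brain (background 10.3%), spleen (background 12.9%), pancreas (background 51.4%), kidney (background 6.7%) or lung (background 4.55%).

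On reads other than miR-143, with 456 names tested, brain again had 9 above (background 53.7%) and spleen 6 above (background 30.3%). Heart had 9 below (background 46.7%) and the library labelled uterus 8 below (background 10.3%). Ovary had 8 above (background 9.87%), with a median of 2.17 over members and −1.13 over all names. The library labelled colon had 8 above (background 34.2%), where all 9 were below on all reads. Lung had 6 above (background 50.7%), a share of members close to that of all names. Cerebellum had 3 above and 3 below (background 48.7% and 25%), oesophagus 1 above and 5 below (background 35.3% and 9.43%), and liver 4 below (background 51.5%). Pancreas had 1 below (background 64.7%), stomach 1 (background 3.29%), small intestine 3 (background 11.8%), and kidney had no member in either direction (background 32.5% above and 12.7% below). None was above in heart (background 5.7%), stomach (background 48.2%), small intestine (background 23%), liver (background 3.73%), pancreas (background 4.17%) or the library labelled uterus (background 22.4%), and none was below in the library labelled colon (background 24.3%), brain (background 15.1%), spleen (background 17.8%), lung (background 5.48%) or ovary (background 53.3%). With median-of-ratios size factors the members' median difference was 1.61 in brain, 1.16 in spleen, 3.61 in ovary, 3.20 in pancreas, −1.48 in oesophagus, −1.02 in kidney, −0.96 in the library labelled uterus and −0.44 in heart. On totals without the 5 most abundant names these medians were 1.26 in brain, 1.39 in spleen, 2.57 in ovary, 1.16 in pancreas, −1.08 in oesophagus, −0.71 in kidney, −1.10 in the library labelled uterus and −0.22 in heart. The lowest member in heart was at −0.92 and −0.75 on these scalings, short of a 2-fold difference, so the calls in heart depend on the scaling. The members' median in pancreas depends on it too and was −0.12 on reads other than miR-143. The 5 most abundant names were each library's own and included let-7 members in most libraries, so that scaling is not independent of the family.

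The make-up of the family does not depend on the scale, and it differed most in cerebellum. There, let-7c held 57.5% (57.3 to 57.6%) of family reads, against a median of 27.2% in the other 13 libraries. let-7b held 25.6% (25.5 to 25.8%), against 9.14% elsewhere. let-7f, the leading member in most tissues, held 4.82% (4.75 to 4.89%) in cerebellum, against 35.6%. let-7a was at 8.06% against 17.5%, let-7g at 1.71% against 5.47%, and let-7d at 0.351% against 1.61%. With 2 times or 0.5 times the median elsewhere as the rule, 6 of the 13 shares called among 126 were in cerebellum, and 7 tissues had none.

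**Figure D3:**
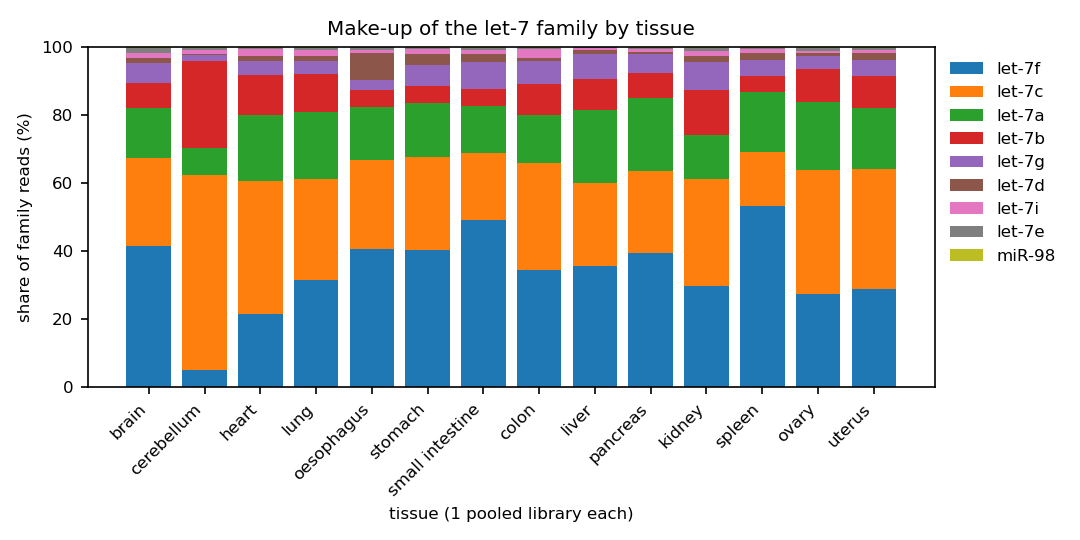
Stacked bars give the share of family reads held by each member in each tissue (1 pooled library each). let-7f, let-7c and let-7a fill most of every bar, and in cerebellum let-7c (57.5%) and let-7b (25.6%) fill most of it while let-7f is at 4.82%.

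The other 7 shares past the rule were in oesophagus, stomach, pancreas, brain, liver and the library labelled colon. let-7d held 7.94% (7.87 to 8.01%) of the family in oesophagus, against 1.59% elsewhere, a ratio of 4.99, and 3.26% in stomach, against 1.59%. Oesophagus and stomach were also the libraries highest in the squamous epithelium markers miR-203 and miR-205, with 20451 and 4601 RPM, and their part in the let-7d share was not tested. In pancreas let-7d held 0.660%, against 1.61%. let-7e held 1.65% (1.64 to 1.66%) in brain, against 0.542%, and 0.228% in liver, against 0.575%. let-7i held 0.469% in liver and 2.54% in the library labelled colon, against 1.34% and 1.22% in the libraries other than each.

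Ratios between members put the same differences on a direct scale. The let-7f to let-7c ratio was 0.0839 (0.0826 to 0.0852) in cerebellum and 3.32 (3.31 to 3.34) in spleen, the ends of the range, with 0.551 in heart, 1.06 in lung, 1.60 in brain and 2.51 in small intestine. The let-7g to let-7i ratio was 15.9 (15.5 to 16.3) in liver, the highest, and 1.47 (1.41 to 1.53) in cerebellum, the lowest. By contrast the let-7b to let-7c ratio stayed between 0.184 (stomach) and 0.446 (cerebellum), a 2.42-fold range, while that of let-7f to let-7c was 39.6-fold. let-7d relative to its cluster neighbour let-7a spanned 16.6-fold, from 0.0309 in pancreas to 0.511 in oesophagus. The ratio thus varied little for let-7b and let-7c and widely for let-7d and let-7a. Since let-7c and let-7a each have another locus, these are not ratios between neighbouring hairpins. let-7b and let-7c also differ by 1 base, and the part of read assignment in their ratio was not tested.

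Brain and cerebellum, the neural tissues of the set, were set side by side member by member on all reads. let-7f had 267439 RPM in brain and 16132 RPM in cerebellum, 16.6-fold (16.3 to 16.8). let-7d was 8.74-fold (8.28 to 9.23) higher in brain, let-7e 7.02-fold (6.69 to 7.37), let-7g 6.35-fold (6.20 to 6.51), let-7a 3.53-fold (3.49 to 3.58) and let-7i 2.27-fold (2.20 to 2.34). miR-98 was 1.31-fold (1.24 to 1.39) higher, the smallest of the members higher in brain. let-7c had a ratio of brain to cerebellum of 0.867 (0.863 to 0.871) and let-7b of 0.560 (0.555 to 0.564), so these members were higher in cerebellum. Folds on reads other than miR-143 ran from 0.570 (let-7b) to 16.9 (let-7f), with let-7b and let-7c again the members under 1. With 1 library each, this compares the pools and not the tissues' variation among animals, and the cerebellum library was also the one with striated muscle and acinar markers given above.

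**Figure D4:**
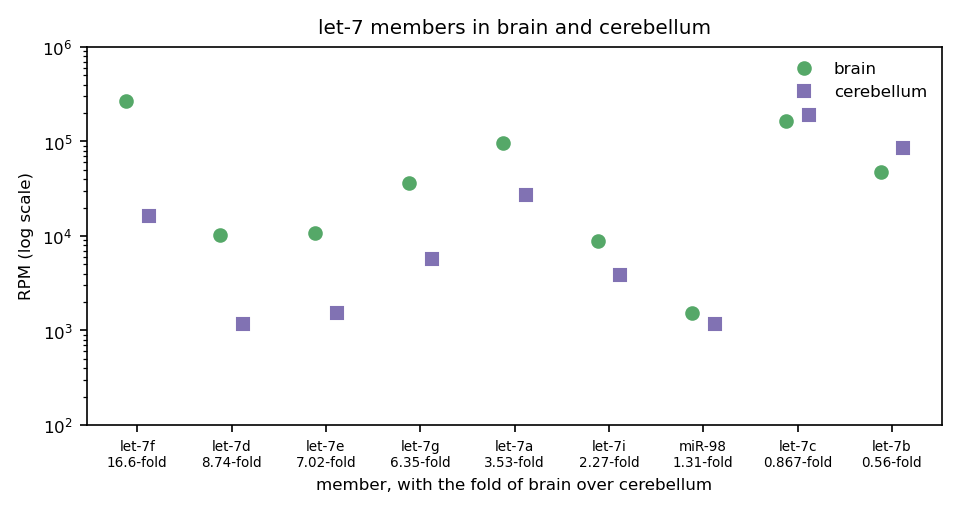
Points give RPM of all miRNA reads (log axis) for each member in brain (circles) and cerebellum (squares), ordered by the fold of brain over cerebellum printed under each name. The gap is widest for let-7f (16.6-fold) and the order of the tissues turns for let-7c and let-7b.

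The star arms, the strand of each hairpin that is mostly degraded, were a second readout from the same genes. The 12 star names summed to 3771 reads in all libraries, 0.0321% of the number of reads of the members.

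let-7d* stood apart. Per 1000 reads of let-7d it had 241 (213 to 273) in cerebellum, from 322 star reads and 1334 mature reads. The next tissues were heart with 16.9 (13.6 to 20.8), lung with 10.6 (9.08 to 12.3), small intestine with 9.72, the library labelled uterus with 8.83 and kidney with 7.81. Oesophagus had 4.31, stomach 1.65, brain 1.26, liver 0.439 and spleen 0.102 (0.0211 to 0.298). Ovary had 0.475 (0.0120 to 2.65) from 1 star read, so its place in the order is not settled. The library labelled colon and pancreas had under 1000 reads of the pair and were left out. The cerebellum ratio went with a low mature level: let-7d was at 1176 RPM in cerebellum and 10274 RPM in brain, and let-7d* at 284 RPM in cerebellum and 13 RPM in brain, so the star was higher in cerebellum while the mature name was lower.

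let-7i* was also highest in cerebellum, at 15.4 (11.9 to 19.5) per 1000 reads of let-7i, before lung at 8.99 (7.68 to 10.5) and brain at 4.75 (4.15 to 5.42), and lowest in liver at 0.712 (0.194 to 1.82). Summed over the family, star reads per 1000 mature reads ran from 0.0118 in ovary to 1.61 in cerebellum. Ovary and pancreas (0.0200) had only 3 star reads each, so their order is not settled. let-7d* made up 52.8% of star reads in cerebellum and 54.7% in oesophagus. let-7a-1* and let-7c-2* bear on how reads were credited. Their mature sequences are identical in RefSeq and are printed for that reason.
let-7a-1*: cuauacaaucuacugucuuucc
let-7c-2*: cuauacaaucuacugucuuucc
Their counts were 525 and 543 over all libraries and differed by −1 to 7 reads in each, with equal counts in 5 libraries, 3 of them above 0. Names with 1 sequence thus had near-equal counts in every library, and neither count can be read as that of its own locus. Both names are in every star sum given above. If the same reads were entered under both, these sums hold them more than once and the let-7d* percentages are too low, which was not settled.

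**Figure D5:**
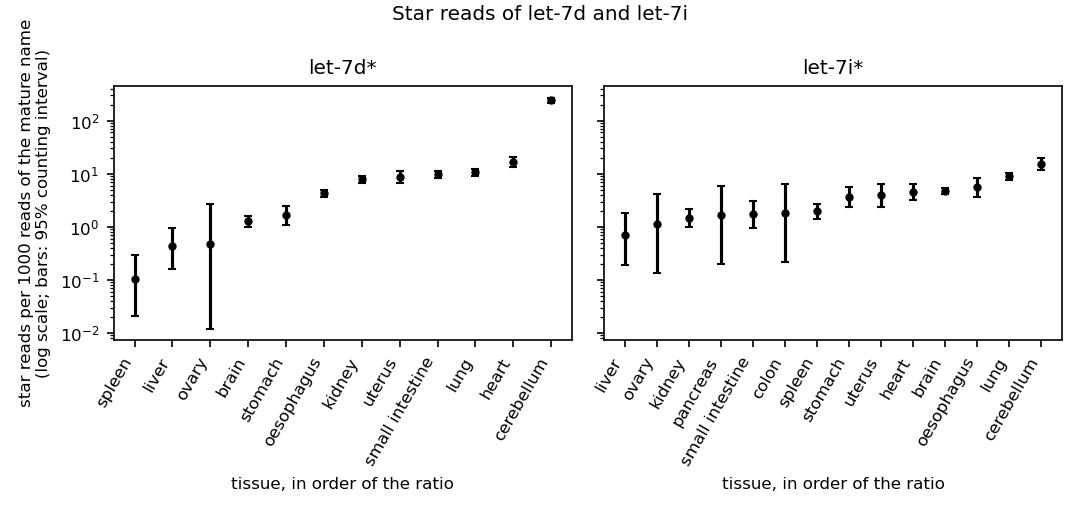
Points give star reads per 1000 reads of the mature name (log axis) for let-7d* and let-7i* in libraries where the pair held at least 1000 reads, with 95% counting intervals as bars and tissues in order of the ratio. let-7d* is at 241 in cerebellum, above heart at 16.9, and let-7i* is highest in cerebellum at 15.4.

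miRNAs that lie in clusters with let-7 genes, miR-99a, miR-99b, miR-100, miR-125a-5p and miR-125b-5p, were set beside the let-7 members they neighbour. On reads other than miR-143 and over 14 tissues, let-7c and miR-99a had a Spearman rho of 0.01 (Pearson r 0.02, and 0.17 without the 2 libraries farthest from the median). let-7a and miR-100 had −0.17 (r −0.15, then −0.14), and let-7e and miR-99b had 0.31 (r 0.15, then 0.36). miR-99b and miR-125a-5p had 0.80 (r 0.86, then 0.78). These values depend on the scaling. On all reads rho was 0.36 for let-7c and miR-99a, 0.26 for let-7a and miR-100, 0.45 for let-7e and miR-99b and 0.91 for miR-99b and miR-125a-5p. With median-of-ratios size factors it was −0.34, −0.21, −0.19 and 0.37 for the same pairs. Among these, the sign turned for each pair with a let-7 member. let-7e and miR-125a-5p kept a positive rho, at 0.49 on reads other than miR-143, 0.53 on all reads and 0.25 with size factors. Pearson r for that pair with size factors was −0.007. On the same scalings, let-7c and miR-125b-5p had a rho of 0.16, 0.35 and −0.14, and let-7a and miR-125b-5p had −0.18, 0.13 and −0.29. Within the family let-7b and let-7c had 0.96 (r 0.96, then 0.95), let-7a and let-7f had 0.92 (r 0.88, then 0.85) on reads other than miR-143, and the median of the 36 pairs was 0.75. These are descriptions over tissues, which are not replicates, and both values of a tissue come from the same library and total.

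let-7e per miR-99b, a ratio of members of 1 cluster, was 15.4 (11.4 to 21.3) in pancreas and 14.4 (13.9 to 14.8) in brain, against 0.263 (0.25 to 0.278) in cerebellum and 0.304 (0.295 to 0.313) in lung. The pancreas value rests on 46 reads of miR-99b. miR-99b itself was at 741 RPM in brain and 5749.6 RPM in cerebellum, while let-7e was at 10635 RPM in brain and 1514 RPM in cerebellum. let-7e was thus higher in brain and its cluster neighbour higher in cerebellum, and miR-125a-5p (1052 RPM in brain and 6522 RPM in cerebellum) went with miR-99b. The let-7c to miR-99a ratio was 43.7 in oesophagus, the lowest, and 7306 (3130.2 to 22501) in pancreas, the highest, where miR-99a had 5 reads. It was 756 in brain and 645 in cerebellum, and more than 1 locus contributes to let-7c.

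Outside the family, the names most like its summed level on reads other than miR-143, among 138 names averaging at least 100 RPM, were miR-340-5p (rho 0.62), miR-342-3p (rho 0.55), miR-184 (rho 0.54), miR-146b (rho 0.53) and miR-34c (rho 0.53). Pearson r without the 2 libraries farthest from the median was between 0.37 and 0.72 for these 5. For single members, miR-340-5p was the most like let-7f (rho 0.67), let-7g (0.81) and let-7i (0.78). miR-34c was the most like let-7c (0.66), let-7e (0.72) and miR-98 (0.61), miR-184 like let-7a (0.59), miR-146b like let-7b (0.58) and miR-16 like let-7d (0.72). For these single-member pairs, Pearson r without the 2 libraries farthest from the median was between 0.39 (let-7f) and 0.66 (let-7a). All values are over 14 tissues, and each name was picked as the highest of the 138, which by itself favors a high rho.

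By an index on a log scale the family was evenly spread compared with most names, and no comparison with names of similar abundance was made. On all reads the highest level of a member was still 52.9-fold (let-7i) to 297-fold (let-7e) its lowest. Without the library labelled colon it was 11.6-fold (let-7a) to 44.2-fold (let-7e). The specificity index tau, which is 0 for equal levels in all tissues and 1 for presence in a single tissue, ran from 0.16 (let-7a) to 0.33 (let-7e) with a median of 0.21, computed on log2(RPM + 1), while the median over all 418 names was 0.64. All members but let-7d, let-7e and miR-98 (6 of 9) were at 100 RPM or more in all 14 libraries, and 12 of the 418 names were (2.87%). let-7d, let-7e and miR-98 were under that level in at least the library labelled colon, at 59.8, 35.8 and 10.3 RPM. With a pseudocount of 10 RPM the medians were 0.21 for the members and 0.35 for all names.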

How the data were processed

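The authors deposited unscaled read counts, whole numbers with a row for each mature miRNA. Per the labels' protocols, RNA came from Trizol extraction, was pooled over mice and entered standard Illumina library preparation. The aligner, its settings, the miRNA reference and the build were not given in the sources used here, nor was the treatment of reads matching several names.

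All 14 columns were matched to a tissue by name, and none was left unused. Counts were divided by the total of all names (RPM) or by that total without miR-143. Poisson, binomial and fold intervals are exact, at 95% confidence, and the labels name no molecular identifiers, so they cover counting error only. Python 3.11.15, numpy 2.4.6, pandas 2.3.3, scipy 1.17.1 and matplotlib 3.10.9 were used. A log2 difference used a pseudocount of 1 RPM. A count of 0 allows up to 3 reads. Named were all 9 members, their star names, the cluster partners, miR-202-3p, miR-143, markers, the 5 names most like the family sum and the name most like each member. Members and lists were chosen with earlier results of these data known. The 2-fold rule was checked on simulated counts, with changes made only to names of moderate abundance. A first simulation that also changed miR-143 made calls on other names of that library, so dominant names were then left unchanged in it. The check therefore did not cover the most abundant members, among them let-7f and let-7c. For these, and for shifts in other names that they can cause, the rule was not tested.

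Alternatives were 3 other scalings, other pseudocounts, filters and folds, leaving out libraries, and merging names 1 base apart. Leaving out the colon-labelled and uterus-labelled libraries together, and the composition without cerebellum, were added after the data were seen.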

Additional observations from a re-analysis of the deposited data

How the results depend on the processing

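For brain, the log2 difference of the summed family from the median of the other tissues was 2.52 on all reads, 1.78 on reads other than miR-143, 1.87 with median-of-ratios size factors and 1.28 on totals without the 5 most abundant names. For spleen it was 1.53 on all reads, 1.75 on reads other than miR-143, 1.37 with median-of-ratios size factors and 1.43 on totals without the 5 most abundant names, and for cerebellum 1.57 on all reads, 0.80 on reads other than miR-143, 1.26 with median-of-ratios size factors and 0.62 on totals without the 5 most abundant names. For pancreas it was 1.10 on all reads, 0.33 on reads other than miR-143, 3.54 with median-of-ratios size factors and 1.45 on totals without the 5 most abundant names. These stayed above 0 throughout. It turned round for the library labelled colon (−4.42 on all reads, 1.34 on reads other than miR-143, 0.92 with median-of-ratios size factors and 1.01 on totals without the 5 most abundant names) and for ovary (−0.33 on all reads, 2.12 on reads other than miR-143, 3.75 with median-of-ratios size factors and 2.63 on totals without the 5 most abundant names). It also turned round for lung with size factors (−0.99, and 0.60 on all reads), for liver on reads other than miR-143 (−0.33) and without the top 5 names (−0.000353, against 0.74 on all reads), and for kidney (−0.33, −1.54 and −0.62 on those 3 scalings and −0.28 without the libraries labelled colon and uterus, against 0.33). Leaving out the libraries labelled colon, ovary and pancreas gave 2.41 for brain, 1.42 for spleen and 1.46 for cerebellum. Leaving out those labelled colon and uterus gave 2.19 for brain, 1.20 for spleen, 1.24 for cerebellum and −0.60 for ovary. Leaving out cerebellum gave 2.57 for brain, 1.58 for spleen, −4.25 for the library labelled colon and −0.11 for ovary. The cause was not tested.

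Of the 126 member-by-tissue values, 32 were above and 38 below by the 2-fold rule on all reads. Totals without the 5 most abundant names gave 22 below, and a 4-fold rule gave 16 above and 11 below. On reads other than miR-143, 20 of the 32 and 23 of the 38 calls were shared, and 8 were called in the opposite direction. Members highest in brain numbered 7 on all reads, 2 on reads other than miR-143, and 0 both with size factors and on totals without the 5 most abundant names. Of the 5 names most like the family sum, 2 were shared on all reads and 2 without brain and cerebellum.

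No recomputed family share crossed to the other side of its median elsewhere, but 3 no longer passed the 2-fold rule. These were let-7d in stomach (a ratio of 1.91 without the libraries labelled colon, ovary and pancreas), let-7i in the library labelled colon (1.71 without the most abundant member of each library and 1.98 without cerebellum) and let-7a in cerebellum (0.689 without the most abundant member). Leaving out the libraries labelled colon, ovary and pancreas moved the ratio to the median elsewhere to 3.09 for let-7b and 0.127 for let-7f in cerebellum, 4.66 for let-7d in oesophagus and 3.14 for let-7e in brain, which was 2.95 without cerebellum. Without the most abundant member of each library these were 4.31, 0.263, 5.62 and 3.17, and 0.310 for let-7i in liver. Here let-7f was compared only with heart, kidney, ovary and the uterus-labelled library, led by let-7c. Merged, let-7a, let-7b, let-7c, let-7e and let-7f held 87.9 to 96.4% of family reads.

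Among the other values recomputed, 167 stayed within 1.5 times the reported value (counts) or within its counting interval (levels and shares). A further 114 moved by more and 7 changed sign, given above. Some of the 167 could not change, so their number does not measure stability. Dropping the filter alters no call on a member, and merging leaves the shares of unmerged members as they were. With 1 library per tissue, no paired analysis was possible and the variation among animals is unknown. The 86545 reads other than miR-143 in the library labelled colon and the 292350 in ovary limit the rarer members and the star names most.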

Other observations

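Reads of other names with a let-7-like seed were few. miR-1961, which has the same seed in RefSeq, had 1 read in all libraries. miR-202-3p, whose seed is close to that of let-7, had 14 reads in ovary (6.17 RPM) and 0 in the other 13 libraries, where a count of 0 allows up to 0.321 RPM (small intestine) to 4.82 RPM (pancreas).

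The members can also be set in order of the base at position 19, a grouping noticed after the values were seen and given here without a test. let-7a, let-7d, let-7e, let-7f and let-7g have A there, and their cerebellum shares were 0.461, 0.218, 0.787, 0.136 and 0.313 times their median elsewhere. let-7b and let-7c have G there, with ratios of 2.80 and 2.11. let-7i and miR-98 have U there, with ratios of 0.867 and 1.93.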
